A study of Homo sapiens with 47 samples.

Results

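The mRNA of 10 genes of the YAP and TEAD pathway was followed through a human stem cell differentiation series. They were the 2 co-activators YAP1 and WWTR1 (the gene for TAZ), the 4 DNA-binding partners TEAD1, TEAD2, TEAD3 and TEAD4, and the 4 targets CYR61 (also named CCN1), CTGF (also named CCN2), ANKRD1 and AMOTL2. All 10 were chosen by name, each matched 1 of the 58051 listed genes, and all 10 passed the filter on low counts in both fits described here. On GRCh38, with GENCODE 29 gene bounds, the co-activator genes lie at chr11:102110461-102233423 on the plus strand (YAP1) and chr3:149517235-149736714 on the minus strand (WWTR1). The TEAD genes lie at chr11:12674591-12944483 plus (TEAD1), chr19:49340595-49362457 minus (TEAD2), chr6:35473597-35497076 minus (TEAD3) and chr12:2959330-3040673 plus (TEAD4). The targets lie at chr1:85580761-85583962 plus (CYR61), chr6:131948176-131951373 minus (CTGF), chr10:90912096-90921276 minus (ANKRD1) and chr3:134355874-134375479 minus (AMOTL2). All 10 are annotated as protein coding.

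Bulk mRNA was sequenced from WA09 (H9) cells, 1 established human embryonic stem cell line, in 47 libraries. The 12 time points of whole cultures were the undifferentiated cells in mTESR1 (t0), neuromesodermal progenitor-like (NMP-like) cells at 36 h, and pre-neural progenitor (PNP) and neural crest (NC) cultures at passages P1 to P10. From 36 h onward every culture was in N2B27 without vitamin A. Each received CHIR-99021 (a WNT pathway agonist), FGF2, AGN193109 (an inverse agonist of retinoic acid receptors) and Y-27632 (a ROCK inhibitor). The Y-27632 dose was not constant and was higher in the earliest passages than at other time points. P1 and P5 therefore differed in this dose as well as in passage, and the time course held both doses. The part of the dose in the results was not tested. At P5 and P8, epithelial (EPI) and mesenchymal (MES) cells were also enriched by selective detachment with TrypLE, which enriches the 2 kinds of cells without purifying them. There were 3 libraries per group and 2 at P9, and same-numbered libraries came from 1 differentiation experiment.

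YAP and TAZ do not bind DNA themselves and act on genes through the TEAD factors. When the Hippo kinases (MST1 and MST2 with SAV1, LATS1 and LATS2 with MOB1) are active, YAP and TAZ are phosphorylated and held out of the nucleus or degraded, so the activity of the proteins is set largely after their mRNA is made. The pathway is known for its response to cell density, spreading and actomyosin tension, and for roles in stem cell growth and in neural crest emigration. The values here are mRNA levels and do not measure the location or activity of the proteins.

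The libraries held 13029491 to 64082859 counts (median 47292229), and 4 of them were under 25000000 counts (P1 replicate 1, P4 replicate 3, P6 replicate 3 and P8 MES replicate 2). Markers moved with their labels in some groups but not in all. The summed level of 3 pluripotency markers lay between 2353 and 2657 TPM (the deposited transcript abundance, scaled by transcript length and library size) at t0 and between 1.66 and 5.14 TPM at P10. P1 replicate 1 kept 1199 TPM of them against 103 and 99.4 TPM in the other P1 libraries. P10 replicate 1 kept 452 TPM of 4 PNP markers against 13.02 and 24.31 TPM. These PNP markers summed to between 235 and 258 TPM at t0 and between 32.2 and 36.7 TPM at P9. At P9 the 8 neural crest markers summed to between 1071 and 1110 TPM. The 3 presomitic mesoderm markers summed to between 6.45 and 359 TPM at P1. At P5 the PNP markers summed to between 492 and 780 TPM in EPI and between 95.5 and 280 TPM in MES. At P8 the same ranges were 210 to 727 TPM and 72.4 to 500 TPM, so the ranges of the fractions overlapped there. Within each of the 3 differentiations the P8 sum was still lower in MES. In bulk samples, fewer cells of a type and less RNA per cell cannot be told apart.

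TEAD factors bind the letters GGAATG, which appear as CATTCC when the motif is on the other strand. Windows of 250 bases before RefSeq starts were therefore searched on both strands. These starts can differ from the GENCODE bounds given above. Both WWTR1 windows and the second TEAD2 and AMOTL2 windows lie inside those bounds, and others, such as that of ANKRD1, overlap them in part. RefSeq windows (build GRCh38.p14) were found for 7 of the 10 members, 10 windows in all, because WWTR1, TEAD2 and AMOTL2 have 2 each. No window was at hand for TEAD1, TEAD4 and CYR61. The 3 targets with a window are shown because they hold the motif, which is in capitals here, each read 5′ to 3′ along the gene's strand. The CTGF window is chr6:131951373-131951622 on the minus strand, that of ANKRD1 is chr10:90921088-90921337 on the minus strand, and that of AMOTL2 is the second of its windows, chr3:134374448-134374697 on the minus strand.
CTGF: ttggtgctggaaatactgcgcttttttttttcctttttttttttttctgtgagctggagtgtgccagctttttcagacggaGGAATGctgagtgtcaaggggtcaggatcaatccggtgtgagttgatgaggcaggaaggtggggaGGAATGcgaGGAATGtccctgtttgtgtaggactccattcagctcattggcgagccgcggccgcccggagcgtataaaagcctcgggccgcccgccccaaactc
ANKRD1: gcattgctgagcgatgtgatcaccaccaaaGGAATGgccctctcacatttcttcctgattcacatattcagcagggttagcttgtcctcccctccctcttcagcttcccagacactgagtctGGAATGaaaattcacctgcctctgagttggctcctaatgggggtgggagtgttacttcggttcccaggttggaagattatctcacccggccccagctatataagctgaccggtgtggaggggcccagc
AMOTL2: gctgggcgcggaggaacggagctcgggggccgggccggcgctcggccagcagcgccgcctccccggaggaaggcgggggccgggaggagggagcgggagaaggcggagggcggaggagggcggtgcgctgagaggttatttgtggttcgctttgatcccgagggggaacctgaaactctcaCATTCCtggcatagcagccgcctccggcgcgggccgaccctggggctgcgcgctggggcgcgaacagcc

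The CTGF window held 3 matches, at -169 to -164, -104 to -99 and -95 to -90 from the start, and the last pair stand close together. The ANKRD1 window held 2, at -220 to -215 and -128 to -123. The second AMOTL2 window held 1, on the other strand, and the YAP1 window held 1, at -162 to -157. The windows of WWTR1, TEAD2 and TEAD3 and the first AMOTL2 window held none. Of all 35116 windows of this length, 11.89% held at least 1 match, 0.940% at least 2 and 0.0830% at least 3. The letters TGANTCA, which AP-1 factors bind were found once in the ANKRD1 window, apart from its TEAD motifs, and in 6.57% of all windows. These matches describe sequence and were not measured as binding.

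The co-activators were set at very different levels. YAP1 mRNA was the higher of the pair in 47 of 47 libraries, compared here in TPM because it is scaled by length. YAP1 ranged from 82.6 to 202 TPM over the libraries (median 147 TPM), and WWTR1 from 6.46 to 85.8 TPM (median 15.4 TPM).

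YAP1 was lowest before differentiation. At t0 its 3 libraries had 92.1, 82.6 and 87.8 TPM, and at 36 h 133, 107 and 108 TPM, so the groups did not overlap. Among the 15 neighbouring pairs in the order of the 16 group means this was the sole pair whose ranges were apart. From P2 to P10 the group means stayed between 137 TPM (P8) and 162 TPM (P2). YAP1 changed over the 12 time points by edgeR's quasi-likelihood test (adjusted p = 2.66e-05), where 68.7% of the 21750 genes tested were called. The step from t0 to 36 h alone had a log2 fold change of 0.31 (standard error, SE, 0.11; adjusted p = 0.0585), which did not pass 0.05, the threshold used for all calls.

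WWTR1 had another course. At t0 it had 12.3, 10.6 and 11.5 TPM, and at 36 h 17.5, 22.7 and 18.1 TPM. From P1 to P6 the group means lay between 11.92 TPM (P2) and 13.9 TPM (P5). At P8 the libraries had 11.6, 34.2 and 45.0 TPM, at P9 44.3 and 61.4 TPM, and at P10 35.2, 57.7 and 85.8 TPM. Replicate 1 thus stayed low at P8 and was high at P9. WWTR1 changed over time (adjusted p = 9.34e-09), and its late rise was called between P8 and the mean of P9 and P10 (log2 fold change 1.14, SE 0.25, adjusted p = 0.00656), a comparison in which 10.4% of genes were called. The call was lost without replicate 2 (1.25) or replicate 3 (1.24) and with no replicate block (0.98). Against P5, P8 had a log2 fold change of 0.99 (SE 0.27, adjusted p = 0.0918).

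The ratio of the pair varied over time. Between t0 and P2 the YAP1 mean went from 87.5 to 162 TPM beside 11.5 and 11.92 TPM of WWTR1, and after P7 the WWTR1 mean rose while that of YAP1 stayed between 137 and 160 TPM. YAP1 was 7.63-fold ± 0.17 (SD, n = 3) above WWTR1 at t0, 14.5-fold ± 3.7 (SD, n = 3) at P2, 6.46-fold ± 5.29 (SD, n = 3) at P8 and 3.10-fold ± 1.51 (SD, n = 3) at P10. The wide spread at P8 came from replicate 1, at 12.6-fold, against a lowest value of 3.10-fold. The summed level of 8 neural crest markers at P8 was 113, 347 and 696 TPM in replicates 1, 2 and 3, in the order of WWTR1 there. The part of the cell mixture in this shift was not tested.

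**Figure D1:**
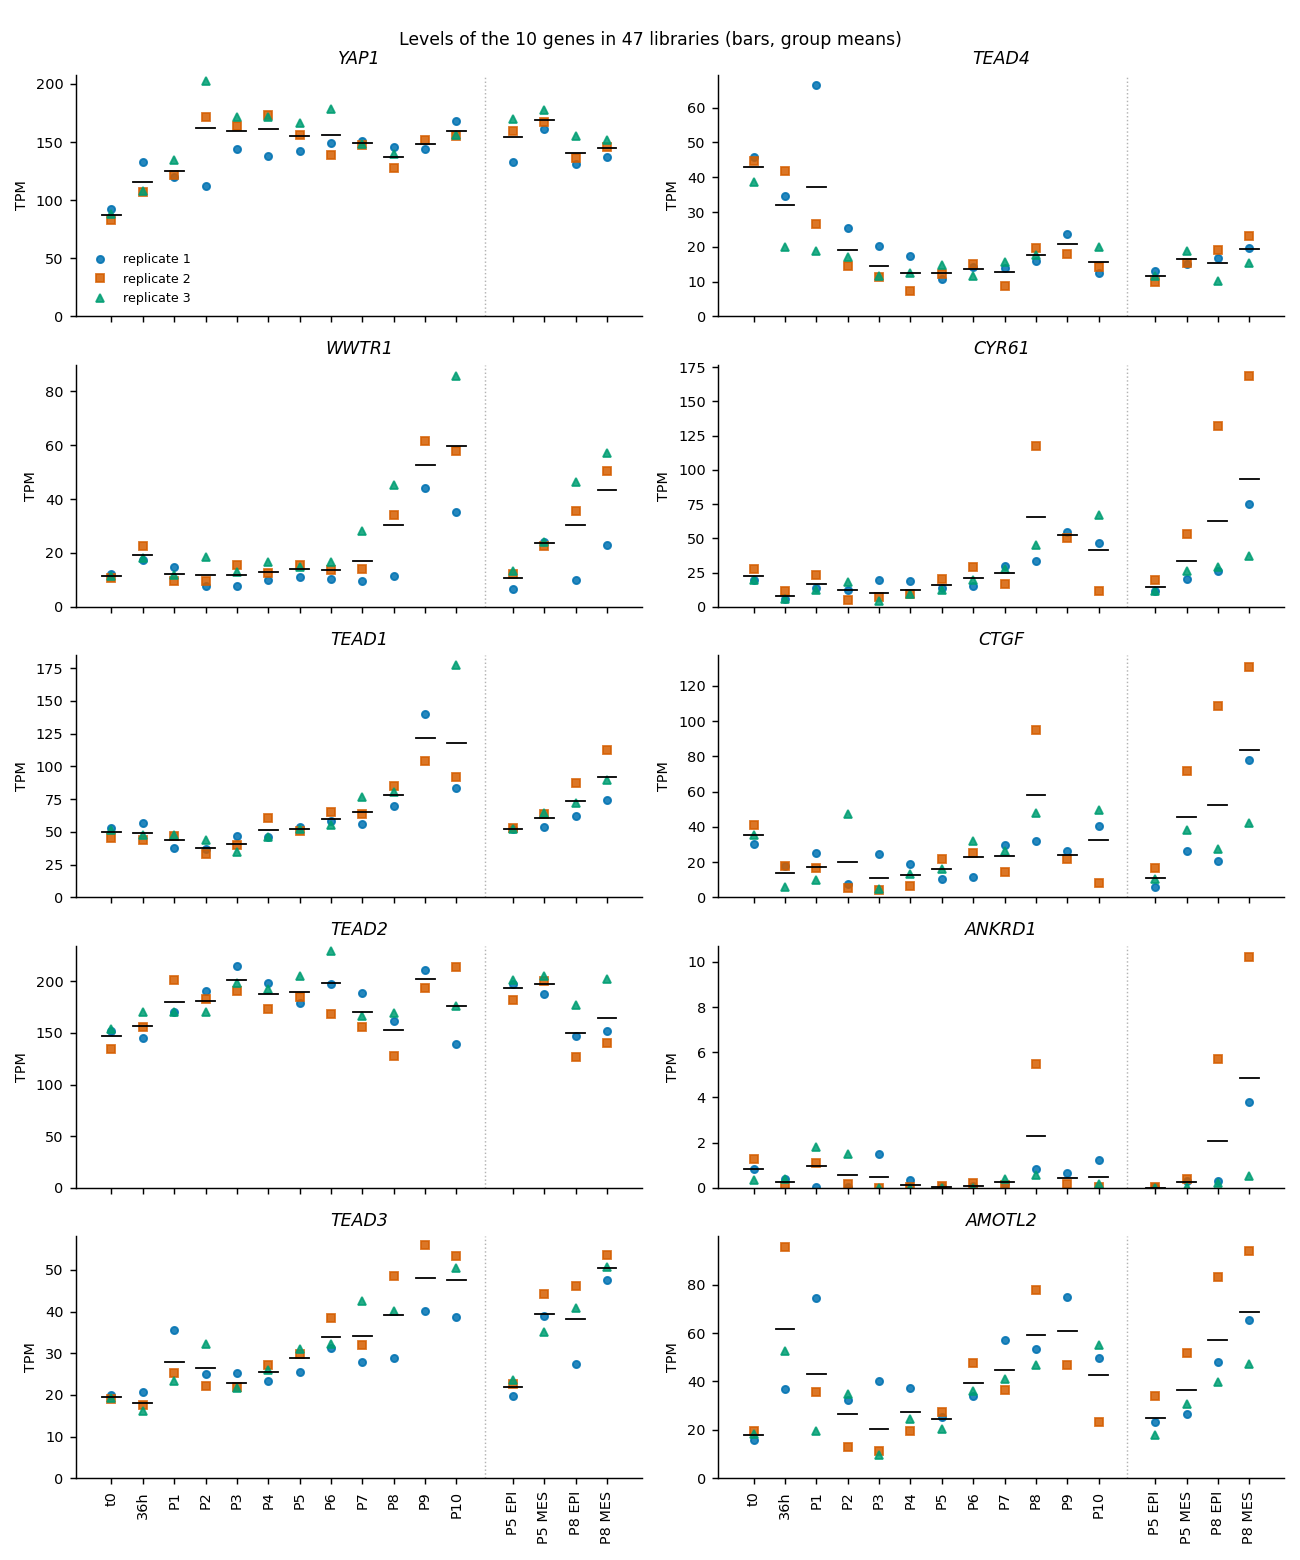
TPM (y axis, from 0) of each of the 10 genes in the 12 time points and, right of the dotted line, the EPI and MES fractions (x axis). Each symbol is 1 library, shaped by replicate, and bars are group means; WWTR1 rises to 59.5 TPM at P10, TEAD4 falls from 43.0 TPM at t0, and replicate 2 is highest for all 4 targets in the 3 groups of P8.

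Among the TEAD factors, TEAD2 was the main mRNA. It had the highest TPM of the 4 in 46 of 47 libraries, ranging from 127 to 229 TPM. In the remaining library, P10 replicate 3, TEAD1 had 178 TPM and TEAD2 176 TPM. TEAD2 was the one TEAD factor for which no change over the 12 time points was called (adjusted p = 0.216), and its highest group mean (202 TPM at P9) was 1.38-fold its lowest (147 TPM at t0).

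TEAD4, which is known from trophectoderm and also expressed in pluripotent cells, was the 1 TEAD factor called lower in any step of the time course. It had 45.9, 44.7 and 38.6 TPM at t0, 34.6, 41.8 and 19.9 TPM at 36 h, and 66.5, 26.5 and 18.9 TPM at P1. By P5 it had 10.9, 12.1 and 14.7 TPM. P1 replicate 1, which kept pluripotency markers, was also the highest TEAD4 library of all 47. TEAD4 fell by 1.61 on the log2 scale between P1 and P5 (SE 0.38, adjusted p = 0.00457), where 17.3% of genes were called. Without P1 replicate 1 the log2 fold change was -1.03 and the call remained, but without all libraries of replicate 1 (-0.88) or of replicate 2 (-1.80) it was lost. The Y-27632 dose also differed between P1 and P5, and its part in the fall of TEAD4 was not tested.

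TEAD3 was called higher after 36 h. It had 20.8, 17.5 and 16.1 TPM at 36 h and 35.5, 25.3 and 23.3 TPM at P1, without overlap. It rose by 0.62 on the log2 scale (SE 0.17, adjusted p = 0.0266), in a comparison with 8.48% of genes called. The call was lost without P1 replicate 1 (log2 fold change 0.43) and without 36 h replicate 2 (0.62). TEAD3 then had means of 28.7 TPM ± 2.9 (SD, n = 3) at P5, 39.1 TPM ± 10.0 (SD, n = 3) at P8 and 47.5 TPM ± 7.7 (SD, n = 3) at P10.

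TEAD1 had means of 50.0 TPM at t0 and 44.0 TPM at P1 and was lowest at P2 (37.3, 32.9 and 43.7 TPM). At P8 it had 69.7, 85.4 and 80.3 TPM, at P9 140 and 104 TPM, and at P10 83.4, 91.7 and 178 TPM. It rose between P8 and the mean of P9 and P10 (log2 fold change 0.65, SE 0.19, adjusted p = 0.0347), and that call was lost without P8 replicate 2 (0.78) and without replicate 1, 2 or 3 as a whole (0.43 to 0.91). TEAD1 and WWTR1 were the 2 of 10 members called in this comparison, beside 10.4% of all genes, and no member was called lower. The 4 smooth muscle markers fell in the same comparison (4 of 4 called), 3 of 8 neural crest markers rose, and 2 of 3 endothelial markers rose (PECAM1 and KDR). Of the smooth muscle markers (ACTA2, TAGLN, MYH11 and CNN1), MYH11 had at most 0.24 TPM at P8 and 0.1 TPM at P10. The neural crest markers SOX9, SOX10 and FOXD3 had their highest P10 library below their highest P8 library (42.95, 0.76 and 11.88 against 169.45, 15.19 and 93.51 TPM). The 4 PNP markers summed to 196.5 to 775.7 TPM at P8, 32.15 to 36.73 TPM at P9 and 13.02 to 451.6 TPM at P10. The part of these markers in the members' rise was not tested.

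The summed TEAD level was 259 TPM ± 14 (SD, n = 3) at t0, 288 TPM ± 17 (SD, n = 3) at P8 and 357 TPM ± 76 (SD, n = 3) at P10. TEAD2 made up 56.6% ± 1.7 (SD, n = 3) of it at t0, 72.2% ± 2.3 (SD, n = 3) at P3 and 49.9% ± 8.0 (SD, n = 3) at P10. TEAD4 went from 16.6% ± 1.9 (SD, n = 3) at t0 to 4.41% ± 0.41 (SD, n = 3) at P5. TEAD1 went from 14.4% ± 2.0 (SD, n = 3) at P2 to 32.3% ± 8.8 (SD, n = 3) at P10. These are shares of mRNA and were given no test over time.

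**Figure D2:**
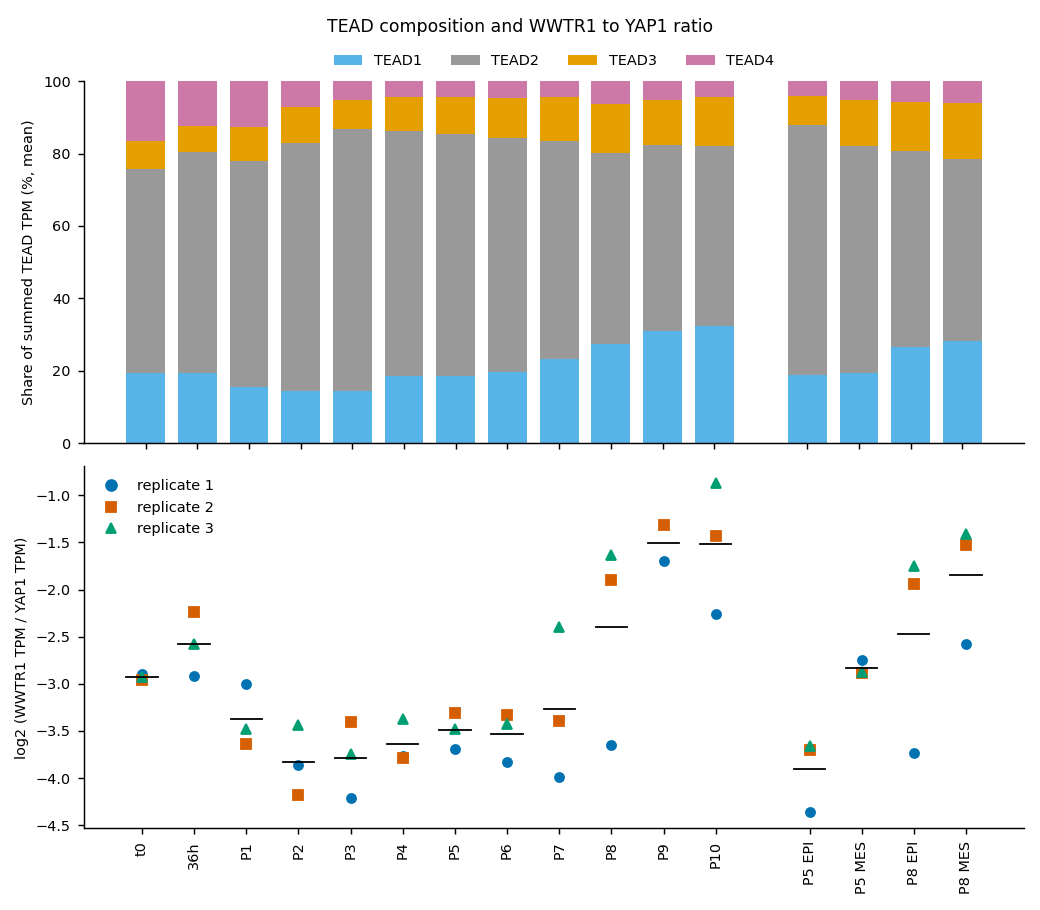
Top, mean share of each TEAD factor in the summed TEAD TPM (y axis, percent) in each group (x axis). Bottom, log2 of the WWTR1 to YAP1 TPM ratio (y axis) with 1 symbol per library and bars for group means; the mean is -3.83 at P2 and -1.52 at P10, and every library is below 0.

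The 4 targets differed in level and in course. CYR61 and CTGF encode secreted matricellular proteins, AMOTL2 encodes a scaffold protein of the angiomotin family that binds YAP and restrains it, and ANKRD1 encodes an ankyrin repeat protein best known from cardiac muscle. Over the 47 libraries CYR61 ranged from 4.31 to 168 TPM, CTGF from 4.18 to 131 TPM and AMOTL2 from 9.74 to 95.7 TPM. ANKRD1 did not exceed 10.2 TPM, and 15 of its 47 libraries had 3 counts or fewer. CYR61 (adjusted p = 0.00142) and AMOTL2 (adjusted p = 0.0155) changed over the 12 time points. CTGF (adjusted p = 0.135) and ANKRD1 (adjusted p = 0.124) did not pass. In all, 7 of 10 members were called in this test, close to the 68.7% of all genes.

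On NMP induction 1 of the 4 targets was called. AMOTL2 had 15.7, 19.5 and 18.2 TPM at t0 and 36.9, 95.7 and 52.5 TPM at 36 h, without overlap. It rose by 1.80 on the log2 scale (SE 0.50, adjusted p = 0.0177) and was the 1 member called, where 12.3% of genes were called. Without 36 h replicate 2, the highest AMOTL2 library of all, the log2 fold change was 1.161 and the call was lost, as it was without all libraries of replicate 3 (1.95). The 3 presomitic mesoderm markers summed to between 1.99 and 2.83 TPM at t0, and 2 of them were called higher at 36 h. Their sums at 36 h were 6.61, 129 and 629 TPM in replicates 1, 2 and 3. Their part in the AMOTL2 result was not tested.

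CYR61 had 19.6, 27.9 and 19.96 TPM at t0 and 6.08, 11.8 and 6.08 TPM at 36 h, and CTGF had 30.3, 41.1 and 35.2 TPM at t0 and 17.9, 17.9 and 5.81 TPM at 36 h. Neither gene's groups overlapped, as for 5 of 10 members and 34.9% of all genes, and both were lower in 3 of 3 differentiations. Their log2 fold changes were -1.49 (SE 0.61, adjusted p = 0.114) and -1.37 (SE 0.76, adjusted p = 0.267), which did not pass. t0 differs from 36 h in medium, in all 4 added agents (CHIR-99021, FGF2, AGN193109 and Y-27632) and in time, which cannot be told apart.

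In the 3 pathway lists, the Hippo kinase core had 1 gene higher and 3 lower of 11 at 36 h, where 12.3% of all genes were called. MAP4K4, a kinase that can act on LATS, rose by 0.58 on the log2 scale, the scaffold genes WWC1 and SAV1 fell by 0.95 and by 0.77, and the kinase gene LATS2 fell by 0.64. Of 9 binding proteins tested, AMOTL1, an angiomotin relative, rose by 1.09, and VGLL2, a TEAD cofactor, was called higher from few counts (2, 2 and 2 at t0 and 6, 28 and 21 at 36 h). Of 16 other targets, FOXF2 was the 1 called, on 1 count in all at t0 and 15 at 36 h, so no fold is given for either gene.

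Between 36 h and P1, where 8.48% of all genes were called, TEAD3 was the 1 of 10 members called. No gene of the kinase core was called by edgeR, and 0 of 11 had an unadjusted p under 0.05, beside 23.4% of all genes. The LIM protein gene AJUBA rose by 0.96. Of the 16 other targets 4 were higher and 1 lower, with CCDC80 at 3.44, TGFB2 at 2.79, RBMS3 at 2.54 and DOCK5 at -1.16 as the largest log2 fold changes.

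Between P1 and P5, which also differed in Y-27632 dose and where 17.3% of all genes were called, TEAD4 was the 1 of 10 members called. Again no kinase core gene was called by edgeR, and 1 of 11 had an unadjusted p under 0.05, beside 31.2% of all genes. Binding protein genes rose in 3 cases, namely AMOT (1.82 on the log2 scale), PTPN14 (1.28) and AMOTL1 (1.15). Among the other targets 5 were higher and 2 lower of 16. The 4 with the largest log2 fold changes were TGFB2 (5.54), NT5E, MYOF (3.07) and RBMS3 (2.02), where NT5E had 6 counts in all at P1 and 154 at P5.

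Between P5 and P8 in whole cultures all 4 targets were higher in each of the 3 differentiations. CYR61 had 14.0, 20.6 and 12.4 TPM at P5 and 33.5, 118 and 45.0 TPM at P8. CTGF had 10.4, 22.0 and 15.8 TPM at P5 and 31.7, 95.0 and 47.7 TPM at P8. AMOTL2 had 25.3, 27.5 and 20.4 TPM at P5 and 53.4, 77.9 and 46.9 TPM at P8. None of the 3 genes overlapped between the passages, and replicate 2 was the highest at P8 in each. Of the 10 members 7 did not overlap, beside 17.7% of all genes tested. The 4 smooth muscle markers summed to 326, 372 and 323 TPM at P5 and 712, 1593 and 463 TPM at P8, also without overlap and highest in replicate 2, and their part in the result was not tested. At P8 the sum was mostly TAGLN (290 to 1044 TPM) and ACTA2 (165 to 507 TPM), beside CNN1 at 7.59 to 42.5 TPM. MYH11 did not exceed 0.48 TPM in any group, so these sums do not by themselves show that smooth muscle cells were present.

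No member was called between P5 and P8 by edgeR, where 0.262% of genes were called. At an unadjusted p under 0.05 there were 8 of 10, beside 13.3% of all genes, and DESeq2 called 3 (WWTR1, CYR61 and ANKRD1), beside 3.07% of all genes. The log2 fold changes were 2.09 (SE 0.62) for CYR61, 1.92 (SE 0.77) for CTGF and 1.32 (SE 0.49) for AMOTL2. Without P8 replicate 2 they were 1.305, 1.062 and 0.95. ANKRD1 summed to 5 counts over the P5 libraries and 382 over the P8 libraries, 305 of them in replicate 2, a ratio of 68.7 (95% exact interval 29.2 to 213 for counting error only). In the pathway lists no gene was called by edgeR either, with 2 of 11 kinase core genes, 5 of 9 binding protein genes and 8 of 16 other targets at an unadjusted p under 0.05.

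Between the EPI and MES fractions of P5, CTGF, AMOTL2 and TEAD3 were called higher in MES, as was ANKRD1 from very few counts. CTGF had 5.71, 16.5 and 10.6 TPM in EPI and 26.5, 71.4 and 38.3 TPM in MES, higher in 3 of 3 differentiations and without overlap. It was 2.07 higher in MES on the log2 scale (SE 0.37, adjusted p = 0.0202). TEAD3 had 19.7, 22.5 and 23.6 TPM in EPI and 39.0, 44.3 and 35.2 TPM in MES, also without overlap, a log2 fold change of 0.84 (SE 0.14, adjusted p = 0.0179).

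AMOTL2 had 23.5, 34.1 and 17.8 TPM in EPI and 26.4, 51.9 and 30.7 TPM in MES. The ranges overlapped, but MES was higher in each of the 3 differentiations, and the log2 fold change was 0.56 (SE 0.14, adjusted p = 0.0470). ANKRD1 was barely detected, with 1, 1 and 0 counts in EPI and 16, 19 and 2 in MES. The ratio of the sums was 22.4 (95% exact interval 5.78 to 192 for counting error only). Its call is given no weight, because it passed the filter on low counts only through the groups where it was high.

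Apart from ANKRD1, 3 of 9 members were called at P5, all higher in MES, where 7.89% of 18885 genes were called. With ANKRD1 the count was 4 of 10. At an unadjusted p under 0.05 there were 8 of 10, beside 25.9% of all genes. Of the 10, 7 did not overlap, beside 29.4% of all genes. WWTR1 had 6.46, 12.3 and 13.5 TPM in EPI and 24.1, 22.7 and 24.2 TPM in MES, without overlap, with a log2 fold change of 1.31 (SE 0.39, adjusted p = 0.0755). CYR61 had 11.3, 19.8 and 11.7 TPM in EPI and 20.7, 53.2 and 26.4 TPM in MES, also without overlap, with a log2 fold change of 1.18 (SE 0.35, adjusted p = 0.0758). YAP1 and TEAD2 had log2 fold changes of 0.19 (SE 0.07) and 0.01 (SE 0.10).

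The P5 calls changed with the pairing across all genes, not the members alone. With each culture as its own block, 8 of 10 members were called (all but YAP1 and TEAD2), beside 21.4% of all genes, and with no replicate block neither a member nor any of the 18885 genes was. Without replicate 2 or without replicate 3 no gene was called either, and without replicate 1 TEAD3 and AMOTL2 kept their calls. In 28 of the 30 pairs of a member and a differentiation MES was the higher fraction. These pairs share libraries, and the same count was not made over all genes. The median log2 fold change over the 10 members was 0.71, beside 0.003 over all genes tested.

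Along with the members, 3 of 11 kinase core genes were higher in P5 MES (LATS2 by 0.69, MOB1B by 0.41 and LATS1 by 0.28 on the log2 scale). Among all genes 7.89% were called in this comparison. Of 8 binding proteins tested, AMOT (0.87) and WTIP (0.48) were higher. Of 16 other targets 4 were higher and 1 lower, and the 4 with the largest log2 fold changes were RBMS3 (1.86), TGFB2 (-1.34), CCDC80 (1.09) and ARHGEF17 (0.90). Neural crest markers were higher in MES for 4 of 8 genes and PNP markers lower for 2 of 4. The 4 smooth muscle markers summed to between 140 and 211 TPM in EPI and between 529 and 959 TPM in MES. The part of these cell mixtures in the members' differences was not tested.

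Composition was compared between the same fractions. The WWTR1 to YAP1 log2 ratio at P5 was -4.36, -3.70 and -3.66 in EPI and -2.74, -2.88 and -2.87 in MES. The mean difference was 1.07 ± 0.47 (SD of 3 pairs), with no overlap (exact permutation test, two-sided, p = 0.1, the smallest that 3 against 3 allows). The TEAD3 share of summed TEAD TPM was 7.0, 8.43 and 8.18% in EPI and 13.2, 13.7 and 10.9% in MES (exact permutation p = 0.1). The TEAD2 share was 69.8, 68.0 and 69.7% in EPI and 63.4, 61.9 and 63.4% in MES (exact permutation p = 0.1). The TEAD4 share was also apart (exact permutation p = 0.1) and the TEAD1 share overlapped (exact permutation p = 0.6). At P8 every one of these measures overlapped between the fractions (exact permutation p = 0.4 for the TEAD3 share and 0.5 to 0.6 for the others). Over the 10 such tests at P5 and P8 the smallest Benjamini-Hochberg adjusted value was 0.25, and an exact test of 3 against 3 could not reach 0.05, so these values are a description. The permutations did not use the pairing of fractions.

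**Figure D3:**
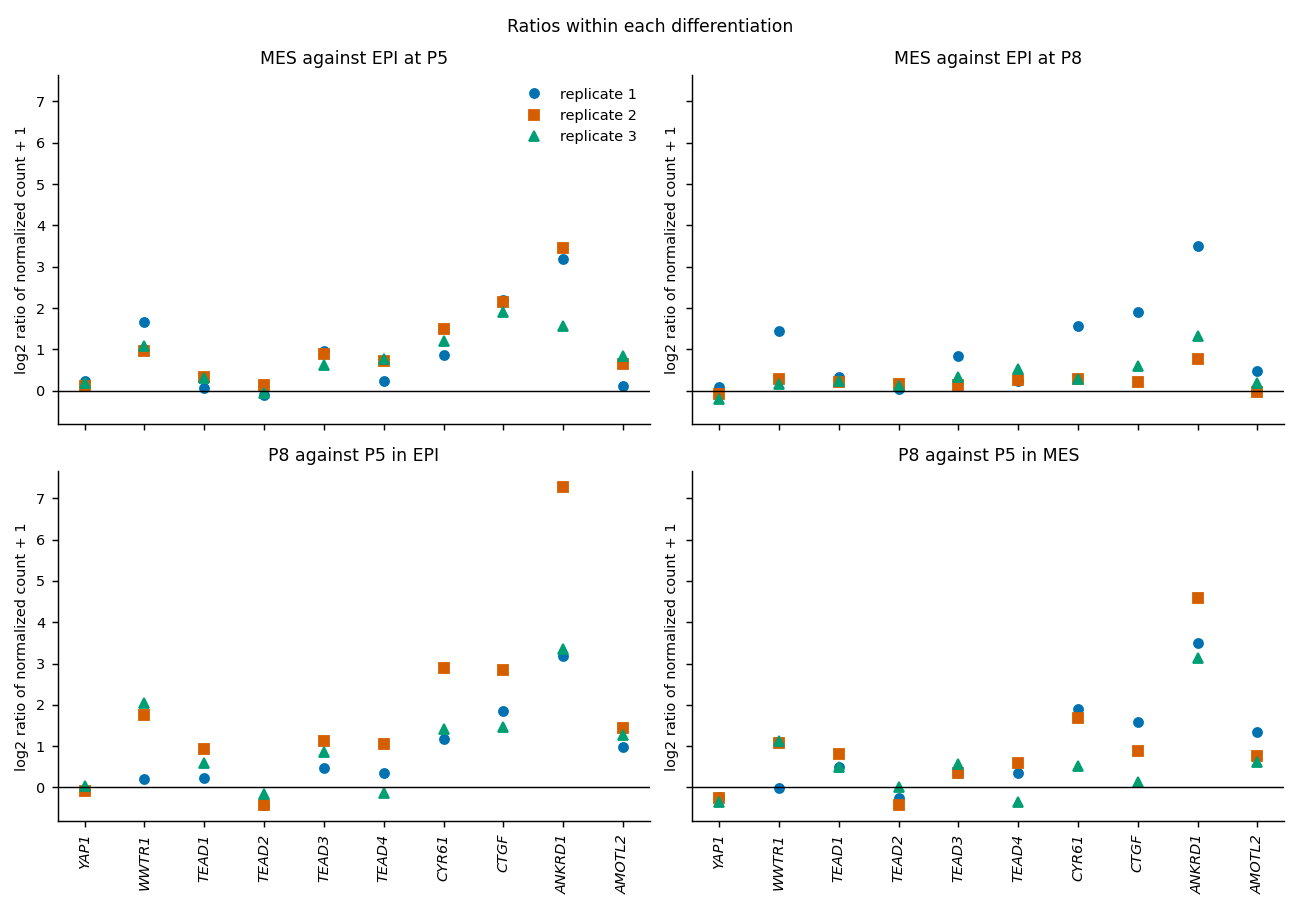
Log2 ratio of normalized counts plus 1 (y axis) for each of the 10 genes (x axis) within each of the 3 differentiations, for MES against EPI at P5 and P8 (top) and P8 against P5 in EPI and in MES (bottom). At P5 the ratios of CTGF lie between 1.90 and 2.19, while at P8 replicate 1 has 1.92 and the others 0.20 and 0.59.

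At P8 no member was called between the fractions. CTGF had 20.9, 109 and 27.5 TPM in EPI and 77.8, 131 and 42.5 TPM in MES. CYR61 had 26.1, 132 and 29.5 TPM in EPI and 74.8, 168 and 37.0 TPM in MES. Both were higher in MES in 3 of 3 differentiations, but the size of the difference varied among them. In replicates 1 to 3 the MES to EPI log2 ratio was 1.92, 0.20 and 0.59 for CTGF and 1.57, 0.288 and 0.285 for CYR61.

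WWTR1 at P8 had 9.83, 35.4 and 46.2 TPM in EPI and 23.0, 50.5 and 57.1 TPM in MES. TEAD3 was the 1 of 10 members whose P8 fractions did not overlap, beside 8.53% of all genes, with 27.3, 46.2 and 40.9 TPM in EPI and 47.5, 53.5 and 50.6 TPM in MES (log2 fold change 0.42, SE 0.14, adjusted p = 0.335). By edgeR 0% of genes were called at P8; 3 of 10 members had an unadjusted p under 0.05, beside 12% of all genes, and DESeq2 called no member.

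Replicate 1 stood apart in these pairs. Its MES to EPI log2 ratios at P8 were 1.43 for WWTR1, 1.57 for CYR61, 1.92 for CTGF and 0.84 for TEAD3. In replicates 2 and 3 none of these genes exceeded 0.59. The PNP marker sum in P8 EPI was 727, 305 and 210 TPM in replicates 1, 2 and 3, and the neural crest marker sum 89.8, 339 and 720 TPM, so the EPI fraction of replicate 1 was the highest in PNP markers and the lowest in neural crest markers. The part of this mixture in the ratios was not tested.

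The change of the MES to EPI difference from P5 to P8 was tested directly, and no member was called (0% of genes called by edgeR; 2 of 10 members at an unadjusted p under 0.05, beside 6.1% of all genes; no member by DESeq2). CTGF had the estimate -1.15 (SE 0.50, adjusted p = 0.816) and YAP1 -0.25 (SE 0.10, adjusted p = 0.816). A difference between the passages in how the fractions differ was therefore not shown. Of the 30 pairs of a member and a differentiation, the whole-culture TPM lay between those of the 2 fractions in 23 at P5 and in 12 at P8. This count too was not made over all genes, and its pairs share libraries.

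Within the EPI fraction the targets were higher at P8 than at P5. AMOTL2 had 48.0, 83.2 and 39.9 TPM at P8 EPI, all above the P5 EPI values of 23.5, 34.1 and 17.8 TPM. It rose by 1.20 on the log2 scale (SE 0.14, adjusted p = 0.00848). With the P8 and P5 values already given, CTGF rose by 2.06 (SE 0.37, adjusted p = 0.0202) and CYR61 by 1.84 (SE 0.36, adjusted p = 0.0248), each without overlap. ANKRD1 had 20, 268 and 11 counts at P8 EPI against 2 in all at P5 EPI, a ratio of 162 (95% exact interval 44.5 to 1340 for counting error only). The call of ANKRD1 is given no weight here either, for the reason given at P5. Of its P8 EPI counts, 268 of 299 were in replicate 2.

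Markers of other cells also differed between the P5 and P8 EPI libraries. In replicates 1, 2 and 3 the smooth muscle sum was 140, 208 and 211 TPM at P5 EPI and 491, 1643 and 209 TPM at P8 EPI. The PNP sum was 780, 623 and 492 TPM at P5 EPI and 727, 305 and 210 TPM at P8 EPI, and the neural crest sum 73.9, 147 and 286 TPM at P5 EPI and 89.8, 339 and 720 TPM at P8 EPI. In replicate 3 the smooth muscle sum was alike at both passages and the neural crest sum was higher at P8. The part of the cell mixture in the EPI result was not tested.

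TEAD3 rose by 0.81 in EPI (SE 0.14, adjusted p = 0.0194). TEAD1 had 52.3, 53.0 and 51.9 TPM at P5 EPI and 62.1, 87.2 and 71.7 TPM at P8 EPI, a rise of 0.56 (SE 0.12, adjusted p = 0.0307). Apart from ANKRD1, 5 of 9 members were called, all higher, where 9.81% of genes were called. With ANKRD1 the count was 6 of 10. Beside the 7 members that did not overlap, 24.9% of all genes did not. WWTR1 (1.44, SE 0.39, adjusted p = 0.0540) and TEAD2 (-0.36, SE 0.10, adjusted p = 0.0520) did not pass, and YAP1 had a log2 fold change of -0.06 (SE 0.07).

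Within the MES fraction 4 members rose and 1 fell, where 11.4% of genes were called. Apart from ANKRD1, 4 of 9 were called, 3 of them higher. YAP1 had 161, 167 and 177 TPM at P5 MES and 137, 146 and 152 TPM at P8 MES. It fell by 0.31 on the log2 scale (SE 0.07, adjusted p = 0.0280) without overlap, the 1 decrease of a co-activator called in any of the comparisons made here. AMOTL2 rose by 0.86 (SE 0.14, adjusted p = 0.0119), CYR61 by 1.37 (SE 0.35, adjusted p = 0.0427), TEAD1 by 0.58 (SE 0.12, adjusted p = 0.0233) and ANKRD1 by 3.97 (SE 0.68, adjusted p = 0.0141). ANKRD1 had 251, 254 and 23 counts at P8 MES against 16, 19 and 2 at P5 MES. The call of ANKRD1 is given no weight in MES either, for the reason given at P5. CTGF had a log2 fold change of 0.91 (SE 0.36, adjusted p = 0.123) and WWTR1 0.63 (SE 0.39, adjusted p = 0.304). Marker sums follow in the order of replicates 1, 2 and 3. For smooth muscle they were 959, 798 and 529 TPM at P5 MES and 2052, 1845 and 247 TPM at P8 MES. For neural crest they were 463, 445 and 648 TPM, then 256, 409 and 1039 TPM. For PNP markers they were 280, 253 and 95.5 TPM, then 500, 198 and 72.4 TPM. The part of the cell mixture in the MES result was not tested.

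Of the 35 other pathway genes tested, 11 were called in EPI and 10 in MES, beside 9.81% and 11.4% of all genes. In EPI, 4 of 8 binding proteins tested rose, VGLL3 (a TEAD cofactor) by 1.90, AMOT by 1.15, AJUBA by 1.00 and WTIP by 0.67, as did LATS2 by 0.73. Of 16 other targets 6 rose, led by IGFBP3 (4.56), NT5E (3.59), GADD45A (2.30) and AXL (1.48). In MES, VGLL3 rose by 2.73 and WTIP by 0.47, AMOTL1 fell by 0.76, and 7 of 16 other targets rose, led by IGFBP3 (4.21), NT5E (3.78), GADD45A (1.75) and AXL (1.58). No kinase core gene was called in MES (edgeR, 2 of 11 at an unadjusted p under 0.05, beside 31.1% of all genes). The EPI comparison shares its P5 libraries with the P5 fraction comparison, and so does the MES comparison.

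The passage calls in the fractions depended on single differentiations and on the pairing. In whole cultures, EPI and MES at P8, replicate 2 was the highest library for all 4 targets (12 of 12 sets of 3). Without its P8 fractions 0 members were called in EPI and 1 (ANKRD1) in MES, beside 0.202% and 1.62% of all genes, so calls were lost across the genes and not among the members alone. In EPI the log2 fold changes were then 1.37 for CYR61 and 1.63 for CTGF. No fold is given there for ANKRD1, which had 2 counts in all at P5 EPI. Without replicate 3 no member was called in either fraction, beside 0.109% of all genes in EPI and 0.615% in MES, and with no replicate block none was, beside 0.0265% and 0.593%. The smooth muscle marker TAGLN, an actin-binding protein, had 291, 1080 and 165 TPM in P8 EPI and 1065, 1210 and 196 TPM in P8 MES in replicates 1, 2 and 3. Its high libraries were those in which ANKRD1 was high at P8 MES (replicates 1 and 2), and its part in the result was not tested.

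At P9 and P10 no target was called against P8 by edgeR, and none had an unadjusted p under 0.05, beside 26.2% of all genes. CYR61 had 54.9 and 50.5 TPM at P9 and 46.3, 11.4 and 67.3 TPM at P10, CTGF 26.3 and 21.7 TPM at P9 and 40.4, 8.25 and 49.3 TPM at P10. P10 replicate 2 was low in both. Against P8, the mean of P9 and P10 had log2 fold changes of -0.44 (SE 0.54) for CYR61, -1.12 (SE 0.67) for CTGF, -2.80 (SE 1.38) for ANKRD1 and -0.23 (SE 0.43) for AMOTL2. Without P8 replicate 2 the estimates were 0.32 for CYR61, -0.29 for CTGF and 0.14 for AMOTL2. In the pathway lists IGFBP3 (3.11), NT5E (2.80) and F3 (1.88) rose and NUAK2 fell by 1.79, the largest of 5 higher and 1 lower of 16 targets, where 10.4% of all genes were called. SAV1 (0.76), MOB1B (0.47) and LIMD1 (1.06) rose.

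The likeness of the members to each other was described by Pearson's r of log2 CPM (counts scaled to library size), over the 16 group means and, apart from them, over each library's deviation from its group mean. Over the group means the 6 pairs of targets had r from 0.58 to 0.90, and over the deviations of 47 libraries from 0.41 to 0.86, highest for CYR61 and CTGF. Without the 3 libraries of P8 replicate 2 the same range was 0.33 to 0.83.

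The co-activators were also set beside the targets. WWTR1 had r of 0.49 to 0.77 with the 4 targets over the group means, and -0.15 to 0.16 over the deviations. YAP1 had -0.43 to -0.07 over the group means and -0.41 to 0.05 over the deviations. TEAD1 and WWTR1 had r = 0.94 over the group means and 0.46 over the deviations. With the targets over the group means, TEAD1 had r of 0.45 to 0.83, TEAD2 -0.69 to -0.47, TEAD3 0.47 to 0.85 and TEAD4 0.03 to 0.54. Over the deviations these were 0.32 to 0.53, -0.48 to -0.06, 0.13 to 0.45 and 0.07 to 0.66. These values share libraries, depth and cell mixture, and no test was made of them.

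**Figure D4:**
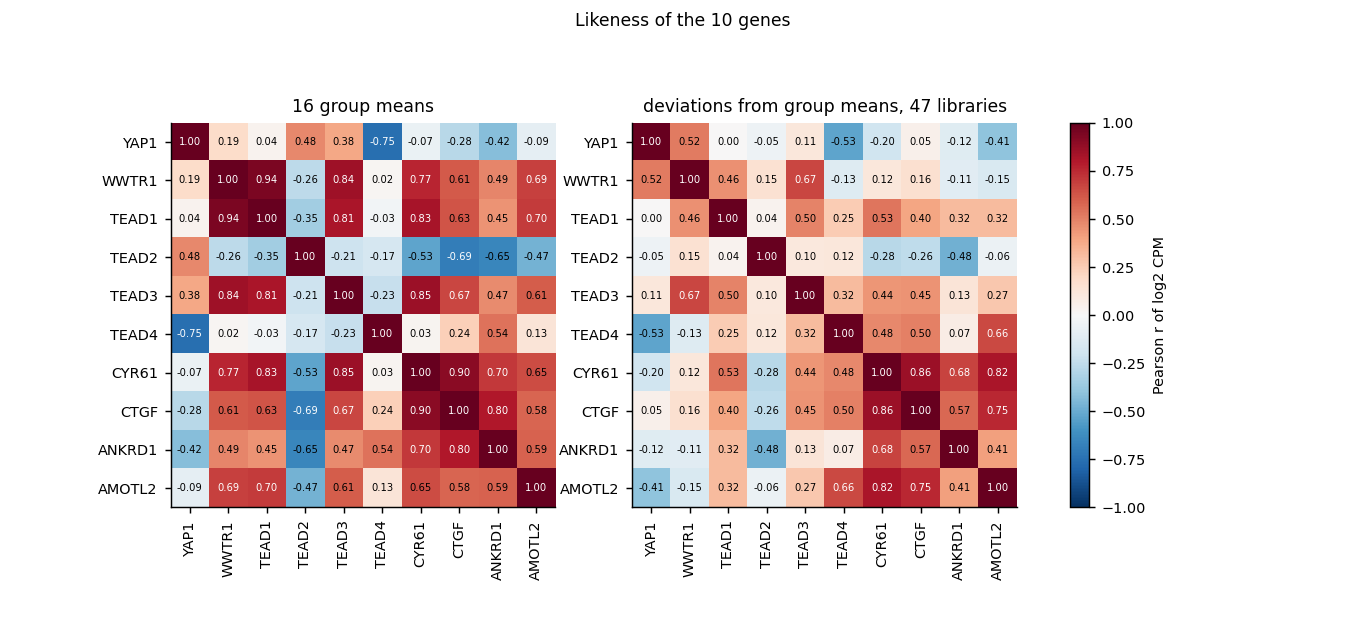
Pearson's r of log2 CPM between the 10 genes (both axes), over the 16 group means (left) and over the deviations of 47 libraries from their group means (right), with red for positive and blue for negative values. The 4 targets form a positive block in both panels, and the YAP1 row is near 0 or below for the targets.

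The genes most like 4 of the members over the 16 group means were taken by rank of r from the 13263 genes that averaged 100 or more normalized counts. They were LRCH1 (r = 0.98), AFF4 (r = 0.98) and FAM91A1 (r = 0.97) for WWTR1. For YAP1 they were SDCBP2-AS1 (r = 0.96), KMT2E (r = 0.96) and RPS6KA3 (r = 0.95). For CYR61 they were C8orf58 (r = 0.97), FNBP1 (r = 0.95) and THBS1 (r = 0.95), the last a secreted matricellular protein gene. For CTGF they were PHLDB1 (r = 0.90), CYR61 (r = 0.90) and NUCB1 (r = 0.90). SDCBP2-AS1 is annotated antisense, and whether counting used strand is not given in the sources used here.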

How the data were processed

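The deposited tables held RSEM estimated (expected) counts, effective gene lengths in bases (used in 1 alternative), and TPM per gene, which the authors made from polyA mRNA reads aligned to GRCh38. The submitters' processing notes name cutadapt 1.16, STAR 2.5.2b and RSEM 1.3.0; the annotation release and strand setting are not given in the sources used here. Deposited TPM values were used for levels between genes, and 9.332% of the estimated counts were not whole.

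Counts were rounded and fitted with edgeR 4.0.16 (R 4.3.3; TMM scaling, filterByExpr, quasi-likelihood test) over all genes, in 1 fit of 35 whole cultures and 1 of 12 fraction libraries, with replicate number as a block. Adjusted p is Benjamini-Hochberg over all genes tested. The series' design gives each experiment all time points and fractions, so the number is the experiment; deviations of same-numbered P5 EPI and MES libraries correlated at 0.653 on average, but those of t0 and 36 h at -0.008. Correlations used log2 CPM with a prior count of 2. All 10 members were named; from each pathway list, the called genes with the largest changes, at most 4 a comparison. Members and lists were chosen with earlier results of these data known. Tests were checked on simulated counts with a smaller spread than the data. The fitted biological coefficient of variation was 34% in the time course and 22.8% in the fractions, so the check does not cover the real spread. Replicates were separate differentiations of 1 cell line. Alternatives were DESeq2 1.42.0, other scaling and filters, other sample sets, no block and leaving out libraries.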

Additional observations from a re-analysis of the deposited data

How the results depend on the processing

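The count of members called over the 12 time points was 7, and 5 to 8 under the alternatives run, and those for MES against EPI at P8 and for the change of that difference were 0 under all of them. Over the 12 time points the share of all genes called, where taken, went from 32.6% (without replicate 2) to 76.3% (DESeq2). No called value reversed its direction; among estimates not called, those of CYR61 and AMOTL2 for P9 and P10 against P8 changed sign without P8 replicate 2. For the 20 calls with a direction, 115 of 243 alternative values kept the direction but lost the call, and DESeq2 kept all 20. Of the 20, 20 were lost without replicate 2, 19 without replicate 3, 5 without replicate 1 and 17 with no replicate block. With no replicate block, 0 members were called for MES against EPI at P5 (4 with it), 0 for P8 against P5 in EPI (6) and in MES (5), and 0 for P9 and P10 against P8 (2), and it changed no other count. The shares of all genes called were then 0%, 0.0265%, 0.593% and 3.89%. Each culture as a block gave 8 at P5, beside 21.4% of all genes. DESeq2 called 2 for 36 h against t0, 2 for P5 against P1 and 3 for P8 against P5, beside 16.7%, 23.1% and 3.07% of all genes. With the compared groups alone in the fit the counts were 2 (36 h against t0), 0 (P1 against 36 h), 0 (P5 against P1), 3 (P8 against P5), 0 (P9 and P10 against P8), 0 (P8 against P5 in EPI) and 1 (in MES). The shares of all genes called were 11.2%, 0%, 2.17%, 1.08%, 0%, 0.0221% and 0.497% in that order. With all 47 libraries the member counts were 2 (36 h against t0), 2 (P5 against P1), 2 (MES against EPI at P5), 2 (P8 against P5 in EPI) and 0 (in MES). Beside them 15.6%, 21.5%, 1.1%, 3.31% and 2.92% of all genes were called. With no count filter the member counts were 0 (P1 against 36 h) and 1 (P9 and P10 against P8), beside 3.11% and 3.84% of all genes. Without the libraries under 25000000 counts the member counts were 0 (P1 against 36 h), 0 (P5 against P1), 2 (MES against EPI at P5) and 2 (P8 against P5 in MES). Beside these, 13.9%, 16.6%, 4.54% and 2.08% of all genes were called. With an adjusted p under 0.01, a minimum fold of 2 and a minimum mean of 100 the member counts were 0 (36 h against t0), 0 (P1 against 36 h), 1 (P9 and P10 against P8), 0 (MES against EPI at P5), 1 (P8 against P5 in EPI) and 0 (in MES). The share of all genes under this stricter rule was not taken, so these counts have nothing to be set beside. Leaving out libraries gave 0 to 2 (36 h against t0), 0 to 1 (P1 against 36 h), 0 to 2 (P5 against P1), 0 to 2 (P8 against P5) and 0 to 2 (P9 and P10 against P8). In the fractions it gave 0 to 3 (MES against EPI at P5), 0 to 7 (P8 against P5 in EPI) and 0 to 6 (in MES). The share of all genes called moved with these counts. Leaving out 1 replicate number gave 0 to 1.1% for MES against EPI at P5. For P8 against P5 it gave 0 to 21.2% in EPI, 0 to 18.9% in MES and 0 to 6.36% in whole cultures. It gave 1.78 to 17% for 36 h against t0 and 0.0222 to 16.6% for P1 against 36 h. For P5 against P1 it gave 3.56 to 20.3%, and for P9 and P10 against P8 0 to 19.4%. Without the P8 fractions of replicate 2 the passage counts were 0 in EPI and 1 in MES; this alternative and those without P8 replicate 2 or 36 h replicate 2 were chosen after seeing the data. The causes were not tested. ANKRD1 had 3 counts or fewer in 15 libraries, deep ones among them, so its ratios carry wide counting intervals.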
